A study of Mus musculus with 8 samples.

Results

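The genes described here are Il4ra, Il13ra1, Il2rg and Il13ra2, which encode the receptor chains for interleukin-4 and interleukin-13, together with Stat6, which encodes the transcription factor that these receptors activate. They are 5 of the 54838 genes in the deposited tables, found by symbol, and all 5 entered the test across 14634 genes. They were selected on the measured levels of Il4ra and Il13ra2, the one lower and the other at 0 in the subclones, so every difference between the subclones and 3H3P in these 5 genes is given as a description, with no test. RNA-seq libraries came from cultured mouse hepatocellular carcinoma cells. Of the 8 libraries, 7 were from 3H3PM, in which MYC is ectopically expressed on a Trp53-knockout background; these are separate subclones, numbered 1, 2, 3, 6, 7, 8 and 9, isolated from tumours that the cells formed in nude mice and then grown in culture. The remaining library was from 3H3P, the Trp53-knockout cells from which 3H3PM was made, and it has no replicate. Both share the origin of the 3H3 line, a liver tumour of a C57BL/6 mouse without MC4R on a high-fat diet, with the Hras mutation Q61L. Between the groups, MYC, growth in mice and isolation of subclones cannot be told apart. Nude mice lack most T cells but keep other host cells.

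IL-4 and IL-13 are cytokines of type 2 immunity. IL-4 can signal through a type I receptor made of IL-4 receptor alpha and the common gamma chain, or through a type II receptor made of IL-4 receptor alpha and IL-13 receptor alpha 1, which also binds IL-13. Non-haematopoietic cells mostly use the type II form. Janus kinases bound to these chains phosphorylate STAT6, which enters the nucleus and switches on its target genes. IL-13 receptor alpha 2 binds IL-13 tightly and is best known as a decoy that limits signalling.

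The promoters of Il4ra and Il13ra2, the pair of genes that led to this choice, are shown because their base composition differs. The letters are the 250 bases before the RefSeq start of each gene, 5′ to 3′ on the gene's strand, from the GRCm38.p6 build, at chr7:125552021-125552270 on the plus strand for Il4ra and chrX:147429193-147429442 on the minus strand for Il13ra2. Capitals mark ATGNAAAT in Il4ra, and TATAAA and TGANTCA in Il13ra2.
Il4ra: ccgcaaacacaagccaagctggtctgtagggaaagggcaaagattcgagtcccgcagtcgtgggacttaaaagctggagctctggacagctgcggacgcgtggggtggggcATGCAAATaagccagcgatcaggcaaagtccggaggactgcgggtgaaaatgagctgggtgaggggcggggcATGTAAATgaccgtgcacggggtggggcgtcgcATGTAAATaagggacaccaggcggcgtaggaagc
Il13ra2: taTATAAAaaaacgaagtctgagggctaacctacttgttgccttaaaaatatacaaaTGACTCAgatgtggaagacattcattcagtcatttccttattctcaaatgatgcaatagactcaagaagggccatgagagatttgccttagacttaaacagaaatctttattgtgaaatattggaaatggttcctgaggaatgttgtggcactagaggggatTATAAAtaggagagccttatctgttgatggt

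The Il4ra window held 17 CpG dinucleotides at 59.6% G+C, and the Il13ra2 window held 1 CpG at 36.0% G+C. The median over 32817 RefSeq promoter windows was 6 CpG and 52.4% G+C, and 7.87% of windows had fewer CpG than Il13ra2. Il13ra1 had 21 CpG at 70.8% G+C, Stat6 6 at 56.8% and Il2rg 3 at 49.2%. Motifs were searched on both strands. TATAAA, the TATA box core, began 31 and 248 bases before the start of Il13ra2 and was in 12.4% of all windows. TGANTCA, the letters of an AP-1 site, occurred once in Il13ra2, 193 bases before the start, and in 6.75% of windows. ATGNAAAT, which covers the octamer ATGCAAAT, occurred at 139, 67 and 34 bases before the start of Il4ra and in 5.03% of windows. These 3 motifs were chosen after the sequences were seen. Neither TTCNNNNGAA, the spacing that STAT6 favours, nor TTCNNNGAA was found in any of the 5 windows; they were in 5.85% and 7.01% of all windows. The GENCODE transcript Il4ra-201 starts inside the Il4ra window, upstream of the RefSeq start. The GENCODE gene begins at 125552120, so the ATGNAAAT sites all lie downstream of that start.

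The libraries held 12838521 to 17987068 expected counts in the subclones and 16855985 in 3H3P. Trp53, whose frameshift need not remove its RNA, was at 46.7 to 66.6 CPM (the count relative to the TMM-scaled size of its library) in the subclones and 212 CPM in 3H3P. Mouse Myc was at 3.57 to 11.6 CPM in the subclones and 85.2 CPM in 3H3P; the labels do not say of which species the introduced MYC is, so these counts do not check it. The mitochondrial share was 1.97% to 2.31% in the subclones and 3.18% in 3H3P. Of the hepatocyte markers, Alb was at 0 in 4 of 7 subclones and at most 2.08 CPM in the others, against 3.67 CPM in 3H3P. Apoa1 was at most 0.0764 CPM in the subclones and 0 CPM in 3H3P. Hnf4a was at 0.0741 to 3.53 CPM in the subclones and 54.2 CPM in 3H3P. Afp went the other way, at 0.319 to 5.95 CPM in the subclones and 0.311 CPM (5 counts) in 3H3P. The 8 hepatocyte markers summed to 52.2 to 154 CPM in the subclones, against 1292 CPM in 3H3P, mostly the keratin genes Krt8 (13.6 to 53.1 CPM in the subclones, 543 CPM in 3H3P) and Krt18 (38.2 to 100.2 CPM in the subclones, 690.4 CPM in 3H3P). The part of this hepatocyte-marker difference in the results that follow was not tested. In a bulk library, fewer cells of a type and less RNA per cell cannot be told apart.

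Il4ra (ENSMUSG00000030748.9, chromosome 7, 125552120 to 125579474, GRCm38) encodes the chain that both receptor types need. It was at 7.52, 6.01, 6.32, 5.63, 6.95, 5.34 and 7.13 CPM in subclones 1, 2, 3, 6, 7, 8 and 9, against 48.9 CPM in 3H3P. The subclones lay close together, far below 3H3P, with no overlap. Their mean was 6.41 ± 0.814 CPM (SD, n = 7), which is 13.1% of the 3H3P value. The fitted log2 fold change was −2.93 with a standard error of 0.22, and single subclones ranged from 10.9% to 15.4% of 3H3P. These values rest on 72 to 127 counts per subclone and 786 counts in 3H3P. The exact 95% Poisson intervals of the 7 subclones all overlapped. Overlap is not a test, and differences among the subclones were not tested.

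Il13ra1 (ENSMUSG00000017057.9, chromosome X, 36112110 to 36171259), the partner chain of the type II receptor, was also lower in all 7 subclones. It was at 27.7, 23.3, 24.5, 42.2, 34.0, 44.3 and 35.4 CPM in subclones 1, 2, 3, 6, 7, 8 and 9, against 87.9 CPM in 3H3P. Even the highest subclone, number 8, reached only 50.4% of 3H3P. The mean was 33.1 ± 8.30 CPM (SD, n = 7), with a log2 fold change of −1.41 (SE 0.31). Unlike for Il4ra, the intervals of this gene did not all overlap, so it differed among subclones beyond counting error. Subclone 8 had an interval of 40.8 to 48.0 CPM and subclone 2 one of 21.0 to 25.8 CPM.

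Il2rg (ENSMUSG00000031304.18, chromosome X, 101264378 to 101268255) encodes the common gamma chain, best known in lymphocytes. Its level was low everywhere and very uneven, at 0.296, 0.128, 0.824, 2.72, 0.993, 5.71 and 4.15 CPM in subclones 1, 2, 3, 6, 7, 8 and 9, against 0.995 CPM in 3H3P. Subclones 6, 8 and 9 were above 3H3P and the other 4 were at or below it, so the groups overlapped. The counts behind these values were 5, 2, 15, 41, 13, 77 and 60 in the subclones and 16 in 3H3P. The interval of 3H3P, 0.569 to 1.62 CPM, lay below those of subclones 6, 8 and 9, of which the lowest began at 1.95 CPM, and above that of subclone 2, which ended at 0.462 CPM. The fitted log2 fold change of 1.07 had a standard error of 1.67, larger than the change itself, and was 0.12 by limma-voom, 0.56 on log2(TPM + 0.1) and 0.61 without subclone 8.

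Since Il2rg marks leukocytes, markers of host cells were set beside it. Of 8 lymphocyte markers 7 were at 0 in all libraries, and the summed level was 0 to 0.0764 CPM in the subclones and 0 CPM in 3H3P. The exception, the pan-leukocyte gene Ptprc, was at most 0.0764 CPM in any library, below the 0.229 CPM that 3 counts are worth in the shallowest one. The 10 macrophage markers summed to 34.9 to 133 CPM in the subclones, highest in subclone 8, and 365 CPM in 3H3P. Most of that sum was Cd14, at 23.8 to 102 CPM in the subclones and 350 CPM in 3H3P, while the defining macrophage gene Adgre1 was at most 0.153 CPM in the subclones and 0 CPM in 3H3P. Csf1r, the receptor gene for macrophage colony-stimulating factor, was at 9.24, 3.77, 12.2, 14.0, 6.72, 23.5 and 15.0 CPM in subclones 1, 2, 3, 6, 7, 8 and 9, against 11.5 CPM in 3H3P. Like Il2rg, it was highest in subclones 8, 9 and 6 and lowest in subclone 2. Cd68 was at 1.38 to 7.49 CPM in the subclones, highest in subclones 8 and 6, against 2.74 CPM in 3H3P. Lyz2 had another order among the subclones. It was at 0, 4.41, 0, 0.927, 2.52, 0.0741 and 0.346 CPM in subclones 1, 2, 3, 6, 7, 8 and 9, against 0.498 CPM in 3H3P. Among the subclones, Itgam, C1qa, C1qb and Fcgr1 were also highest in subclone 2, at 0.192, 0.192, 0.511 and 0.128 CPM. They were at 0 in subclones 1, 3, 6 and 8 and rest on at most 10 counts in any library. The part of macrophage-marker expression in the Il2rg level was not tested.

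Il13ra2 (ENSMUSG00000031289.10, chromosome X, 147383476 to 147429192), the decoy chain, had 0 counts in each of the 7 subclones, against 267 counts (16.6 CPM) in 3H3P. No subclone held a single count assigned to it, while 3H3P expressed it at a moderate level. Set against 3 counts over all subclones together, the gene was at least 592-fold lower in the subclones. The numbers of other genes at 0 in the subclones are given as a description, since Il13ra2 was selected for being so. Of 8256 tested genes with 267 or more counts in 3H3P, 8 had 0 counts in all subclones, Il13ra2 included. Of 25 such genes with 100 or more counts in 3H3P, 2 were on chromosome X. The length that RSEM gave for Il13ra2 in 3H3P, 1906 bases, lies midway between its 2 annotated transcripts of 2281 and 1536 bases, so the reads did not favour either in the estimate.

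Fibroblasts can express these receptors, and 10 fibroblast and stellate markers summed to 104 to 502 CPM in the subclones, with a median of 145 CPM, and 119 CPM in 3H3P. In 3H3P nearly all of this was Dcn, at 116 CPM, against 0 to 0.0692 CPM in the subclones. In the subclones it was mainly Pdgfrb, at 94.4 to 143 CPM against 0.747 CPM in 3H3P, and Pdgfra, at 2.13 to 349 CPM against 0.436 CPM in 3H3P. Lum and Thy1 were at 0 in all libraries, and Col1a1 was at 0.415 to 6.23 CPM in the subclones and 0.871 CPM in 3H3P. The part of fibroblast-like expression in the levels of Il4ra and Il13ra2 was not tested. The 7 endothelial markers summed to 0.229 to 2.15 CPM in the subclones and 1.99 CPM in 3H3P.

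Stat6 (ENSMUSG00000002147.18, chromosome 10, 127642986 to 127660957), the transcription factor gene, was at 115, 120, 96.9, 80.0, 76.8, 76.0 and 87.8 CPM in subclones 1, 2, 3, 6, 7, 8 and 9, against 102 CPM in 3H3P. Subclones 1 and 2 were above 3H3P and the other 5 below it, so that 3H3P fell inside the range of the subclones. The mean was 93.3 ± 18.2 CPM (SD, n = 7) and the log2 fold change −0.12 (SE 0.27). The last bases of Stat6 overlap Nab2 on the opposite strand. The library kit keeps strand, but no source used here gives the strand setting of the counting.

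**Figure D1:**
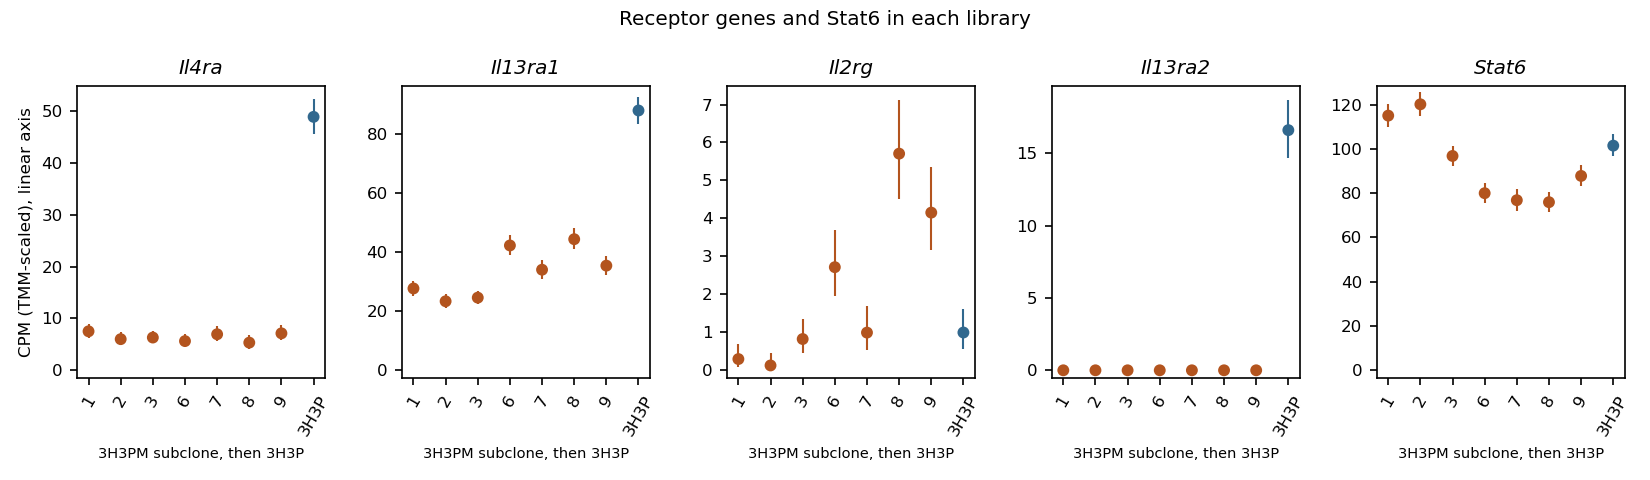
CPM of each gene (TMM-scaled, linear axes, one scale per panel) in the 7 subclones (orange) and then 3H3P (blue), with exact 95% Poisson intervals as bars. Il4ra, Il13ra1 and Il13ra2 are lower in every subclone than in 3H3P, at 6.41, 33.1 and 0 CPM on average against 48.9, 87.9 and 16.6 CPM, while 3H3P lies within the subclones' range for Il2rg and Stat6.

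For 3 of the 5 genes, 3H3P lay outside the range of the subclones, and 57.4% of all tested genes did so too. This count follows in part from how the genes were picked and is given only beside that background.

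Levels can be compared between genes on the deposited TPM scale, which divides by transcript length. In the subclones the order was Stat6 at 41.7 ± 8.29 TPM, Il13ra1 at 13.6 ± 3.37 TPM, Il2rg at 2.56 ± 2.30 TPM, Il4ra at 2.17 ± 0.381 TPM and Il13ra2 at 0 TPM (SD, n = 7). The places of Il2rg and Il4ra are not separated by their spread. In 3H3P the order was Stat6 at 43.0 TPM, Il13ra1 at 34.5 TPM, Il4ra at 16.5 TPM, Il13ra2 at 13.6 TPM and Il2rg at 1.11 TPM. Stat6 and Il13ra1 thus headed both orders.

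The proportions of the chains are given as a description, since each ratio holds Il4ra, which was selected for its fall. Il4ra over Il13ra1, the 2 chains of the type II receptor, was 0.254, 0.227, 0.195, 0.108, 0.152, 0.106 and 0.149 as a ratio of TPM in subclones 1, 2, 3, 6, 7, 8 and 9, against 0.478 in 3H3P. All subclones had fewer Il4ra transcripts per Il13ra1 transcript than 3H3P, and subclones 6 and 8 the fewest. Stat6 over Il4ra was 16.2 to 24.2 in the subclones and 2.61 in 3H3P. Il2rg exceeded Il4ra in 3 of 7 subclones, at 1.72, 3.36 and 2.13 times its TPM in subclones 6, 8 and 9, whereas in 3H3P it was 0.0674 times Il4ra. In subclone 2 the Il2rg TPM of 0.56 comes from 2 counts that RSEM placed on the 558-base transcript Il2rg-202, so its ratio of 0.257 is imprecise.

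Use of the annotated Il4ra transcripts, as far as the weighted length shows it, overlapped between the groups. That length was 3949 to 4943 bases in the subclones and 4288 bases in 3H3P, where the full-length Il4ra-201 has 5256 bases. Stat6 had 3139 to 3608 bases in the subclones and 3458 bases in 3H3P. Il13ra1 has 1 annotated transcript, of 3712 bases.

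Differences among the subclones did not enter the choice of these genes. The spread, as the SD of log2 CPM over the 7 subclones, was 0.18 for Il4ra, 0.27 for Stat6, 0.37 for Il13ra1 and 1.69 for Il2rg. Across 12151 tested genes with a mean of 1 CPM or more, the median was 0.28, with quartiles of 0.19 and 0.46. Il4ra varied less than most genes, with 21.9% of them below it, and Il2rg more than nearly all, with 98.2% below it. From the lowest to the highest subclone, Il4ra differed 1.41-fold, Stat6 1.58-fold, Il13ra1 1.90-fold and Il2rg 44.7-fold, where the lowest rests on 2 counts.

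**Figure D2:**
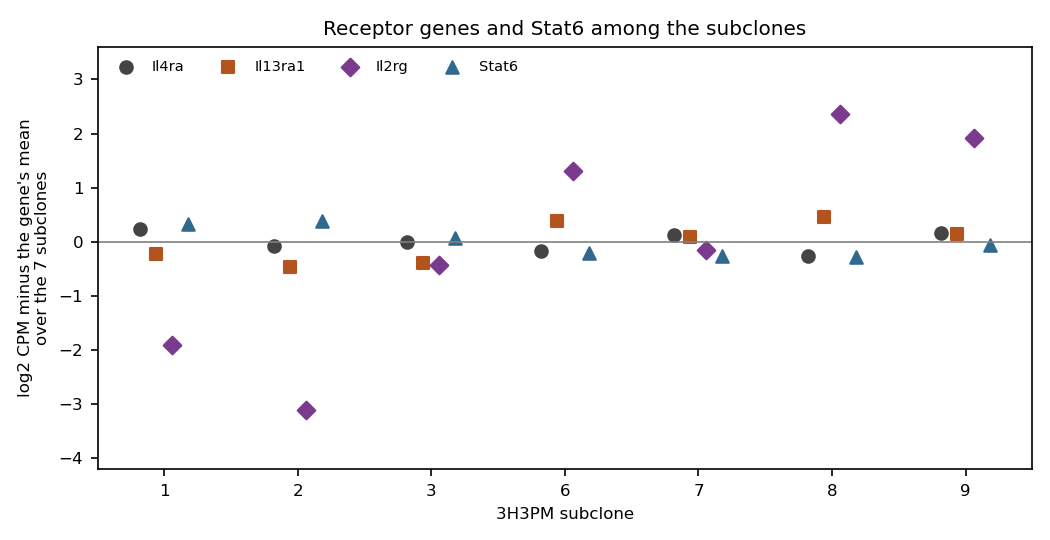
log2 CPM of 4 genes in each subclone minus the gene's own mean over the 7 subclones. Il2rg spreads the most (SD 1.69 on the log2 CPM scale with a prior count of 2), Il13ra1 is highest in subclones 6 and 8, and Stat6 is highest in subclones 1 and 2.

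Il13ra1 and Il2rg tended to be high in the same subclones, and Stat6 in the others. By CPM, all 3 genes split without overlap between subclones 1, 2 and 3 and subclones 6, 7, 8 and 9, for Il2rg only narrowly. Il13ra1 was at 23.3 to 27.7 CPM in the former and 34.0 to 44.3 CPM in the latter. Il2rg was at 0.128 to 0.824 and 0.993 to 5.71 CPM, and Stat6 at 96.9 to 120 and 76.0 to 87.8 CPM. For Il2rg, subclones 3 and 7 had 15 and 13 counts, with overlapping intervals of 0.461 to 1.36 and 0.529 to 1.70 CPM. On the TPM scale their order turned, at 1.53 TPM in subclone 3 and 1.20 TPM in subclone 7. The permutation tests did not account for the split between these sets of subclones, and its part in the correlations was not tested. Il13ra1 with Il2rg had a Pearson's r of 0.878, computed on log2 CPM (Spearman's rho 0.929; exact permutation p = 0.0147 and 0.00675, adjusted over 10 pairs 0.0536 and 0.0337). For Il13ra1 with Stat6 r was −0.857 (rho −0.857; exact permutation p = 0.0190 and 0.0238, adjusted 0.0536 and 0.0595). Il2rg with Stat6 gave an r of −0.843 (rho −0.857; exact permutation p = 0.0214 and 0.0238, adjusted 0.0536 and 0.0595). For Il4ra with these 3 genes r was −0.403 to 0.352, with exact permutation p of 0.348 to 0.418. These r depended on the setting: with Il2rg r was −0.706 on log2(TPM + 0.1) and −0.0451 without subclone 8, and with Stat6 it was 0.605 on log2(TPM + 0.1) and 0.0716 without subclone 1.

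Il11, the cytokine gene named in the series title, was at 2.61, 0.831, 3.35, 15.2, 3.51, 31.1 and 2.98 CPM in subclones 1, 2, 3, 6, 7, 8 and 9, against 0.124 CPM in 3H3P. It was highest in subclones 6 and 8, where Il13ra1 was also highest. Their r was 0.872 (rho 0.821; exact permutation p = 0.00655 and 0.0341, adjusted 0.0536 and 0.0683). Il11 with Il2rg had an r of 0.803 (rho 0.786; exact permutation p = 0.0323 and 0.0480, adjusted 0.0628 and 0.0800). With Stat6 r was −0.775 (rho −0.929; exact permutation p = 0.0377 and 0.00675, adjusted 0.0628 and 0.0337), and with Il4ra −0.609 (rho −0.607; exact permutation p = 0.152 and 0.167, adjusted 0.218 and 0.238).

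By Pearson's r, 0 of the 10 pairs passed an adjusted p of 0.05 in the exact permutation test, and 6 had an unadjusted p below it; by Spearman's rho 2 passed. Pearson's r passed in the same exact test when 1 subclone was left out for Il4ra with Il11 (adjusted p = 0.0417 without subclone 2), Il13ra1 with Il2rg (0.0486 without 3), Il13ra1 with Il11 (0.0486 without 3 and 0.0208 without 9) and Il2rg with Il11 (0.0139 without 9). Without the 2 subclones farthest from the median of the first gene, r was 0.877 for Il13ra1 with Il2rg, −0.834 for Il13ra1 with Stat6 and 0.891 for Il13ra1 with Il11. It was −0.667 for Il2rg with Stat6, 0.461 for Il2rg with Il11 and −0.614 for Stat6 with Il11. These tests were two-sided and ran over all pairings of the 7 values. The points are 7 subclones of one cell line, with the library totals given above.

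The genes whose levels over the 7 subclones were most like each gene were taken from 8912 tested genes with a mean of 10 CPM or more, as a description with no test. For Il4ra they were Fam207a, Tmem185b and Clcf1 (r = 0.987, 0.981 and 0.979). Clcf1 encodes a cytokine of the IL-6 family. The Il4ra ranking rests on subclone values whose exact Poisson intervals all overlapped. For Il13ra1 they were Arhgef11, Ankib1 and Sipa1l1 (r = 0.981, 0.975 and 0.974), and for Il2rg Plekho1, Tinagl1 and Gcfc2 (r = 0.983, 0.978 and 0.975). For Stat6 they were the nuclear pore gene Nup62, the receptor gene Notch1 and the kinase gene Prpf4b (r = 0.992, 0.990 and 0.989). These genes were ranked, not tested, and each r is among the highest of a search through all these genes over 7 values.

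The rest of the pathway was read from a list of 58 genes, of which 39 passed the filter on low counts. In the subclones 1 was called higher and 8 lower (edgeR quasi-likelihood test, adjusted p under 0.05). The counts were 0 higher and 5 lower without subclone 3, 5 lower without subclone 6, and 3 higher and 3 lower on log2(TPM + 0.1). Over all 14634 tested genes 7.33% were called higher and 11.8% lower, 19.1% in all. The 8 lower genes of the list include Mrc1, which passed the filter only through 3H3P and so had to differ. The median log2 fold change of the 39 genes was −0.29, against 0.03 over all tested genes.

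The genes of both cytokines were at or near 0. Il4 had 0 counts in every library, and Il13 had 2 counts in all, both in subclone 6. Chil1, whose protein binds IL-13 receptor alpha 2, was at 24.9 ± 14.3 CPM in the subclones and 45.9 CPM in 3H3P (edgeR adjusted p = 0.474). Tmem219, which encodes a membrane partner of that receptor, was at 8.81 ± 1.52 CPM in the subclones and 11.1 CPM in 3H3P (edgeR adjusted p = 0.497).

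Among the Janus kinases, Jak2 fell to 87.0 ± 35.8 CPM in the subclones, against 282 CPM in 3H3P (log2 fold change −1.70, SE 0.44, edgeR adjusted p = 0.0281; lower in 7 of 7 subclones). Its adjusted p ran from 0.00695 to 0.0612 over the alternatives and missed the threshold on log2(TPM + 0.1). Jak2 acts with many cytokine receptors. Jak1, which binds IL-4 receptor alpha, was at 123 ± 23.1 CPM in the subclones and 133 CPM in 3H3P (edgeR adjusted p = 0.786). Jak3, the partner of the common gamma chain, was at 27.1 ± 9.63 CPM in the subclones and 34.2 CPM in 3H3P, and Tyk2 at 15.3 ± 3.82 CPM in the subclones and 22.1 CPM in 3H3P. Neither passed the edgeR test (adjusted p = 0.633 and 0.309).

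Among 6 adaptor and PI3 kinase genes 1 was higher and 0 were lower. Shc1, an adaptor that links receptors to RAS, rose to 367 ± 67.5 CPM in the subclones, against 181 CPM in 3H3P (log2 fold change 1.02, edgeR adjusted p = 0.0333). Leaving out subclone 3 or 9 ended this call, and its adjusted p ran from 0.00377 to 0.0571 over the alternatives. Irs2, the insulin receptor substrate through which IL-4 also signals, was at 169 ± 44.4 CPM in the subclones and 109 CPM in 3H3P (edgeR adjusted p = 0.306). Pik3r1 and Pik3ca had log2 fold changes of 0.25 and 0.23 and did not pass, though Pik3r1 did on log2(TPM + 0.1) (adjusted p = 0.0476).

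Of 8 negative regulators 1 was lower and 0 were higher. Cish, a feedback inhibitor of cytokine receptors that is induced by STAT5, fell to 4.69 ± 1.21 CPM in the subclones, against 34.2 CPM in 3H3P (log2 fold change −2.86, SE 0.32, edgeR adjusted p = 0.000704; lower in 7 of 7 subclones). The phosphatase genes Ptpn11 and Ptpn1 had log2 fold changes of 0.29 and 0.34, and Socs3 of 0.17 (−0.0060 by limma-voom), which did not pass; Ptpn11 did on log2(TPM + 0.1) (adjusted p = 0.0433). Of 5 STAT6 cofactor genes 1 was lower, Parp14, a coactivator of STAT6, with 14.0 ± 3.26 CPM in the subclones and 41.7 CPM in 3H3P (log2 fold change −1.57, SE 0.30, edgeR adjusted p = 0.00844). Parp14 is also an interferon-responsive gene. Ep300 was at 151 ± 17.1 CPM in the subclones and 222 CPM in 3H3P and missed the threshold (edgeR adjusted p = 0.0562; 0.0341 to 0.102 over the alternatives). Snd1 and Crebbp had log2 fold changes of −0.36 and −0.16.

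Among the other STAT genes, Stat3, Stat5a and Stat5b had log2 fold changes of 0.05, 0.07 and 0.49 and did not pass; the sign turned for Stat5a by limma-voom (−0.0033) and without subclone 3 (−0.10), and for Stat3 without subclone 8 (−0.02). Stat4 had 0 counts in all libraries.

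Most receptors that share the common gamma chain were absent. Il2ra and Il7r had 0 counts in all libraries, Il9r had 3 counts and Il21r, which encodes the IL-21 receptor, had 1. Il2rb, encoding a chain of the IL-2 and IL-15 receptors, was at 0.0592, 0.192, 0.110, 1.72, 0.840, 3.41 and 1.73 CPM in subclones 1, 2, 3, 6, 7, 8 and 9, against 0.249 CPM (4 counts) in 3H3P. Il2rb entered the test only through the subclones, so no p is given. As with Il2rg, subclone 8 was the highest and subclones 1 to 3 were low. Il15ra was at 3.63 ± 1.09 CPM in the subclones and 4.54 CPM in 3H3P.

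Genes known to respond to STAT6, mostly from mouse macrophages, were largely unexpressed. Of 19 such genes 7 were tested, 4 of them lower in the subclones and 0 higher. Genes that passed the filter only through 3H3P, such as Mrc1, had to differ, so their p is not given and these counts, Mrc1 included, are a description. The M2 macrophage genes Retnla and Chil3 had 0 counts in all libraries and Arg1 had 15 counts over all subclones and 0 in 3H3P. Mrc1, encoding the mannose receptor, had 5 counts over all subclones, against 84 counts in 3H3P. Pparg, a nuclear receptor of fat metabolism, fell to 3.25 ± 1.82 CPM in the subclones, against 23.1 CPM in 3H3P (log2 fold change −2.82, SE 0.70, edgeR adjusted p = 0.0234).

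Tgm2, encoding a transglutaminase, fell to 82.2 ± 28.7 CPM in the subclones, against 233 CPM in 3H3P (edgeR adjusted p = 0.0418). Vcam1, an adhesion gene that also responds to NF-kappaB, fell to 17.7 ± 14.9 CPM in the subclones, against 236 CPM in 3H3P (edgeR adjusted p = 0.0358). Both calls were fragile: Tgm2 missed the threshold without subclone 3, 6 or 9, with library size alone and on log2(TPM + 0.1) (0.0173 to 0.101 over the alternatives). Vcam1 missed it without subclone 1, 3 or 6, with DESeq2 and on log2(TPM + 0.1) (0.0175 to 0.131). Pparg missed it on log2(TPM + 0.1) (0.00643 to 0.0976). Klf4 had a log2 fold change of −0.16, and Postn had 0 counts in 3H3P and 1.19 ± 1.50 CPM in the subclones. Postn entered the test only through the subclones, so no p is given. Ccl17 had 7 counts over the subclones and 11 in 3H3P.

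**Figure D3:**
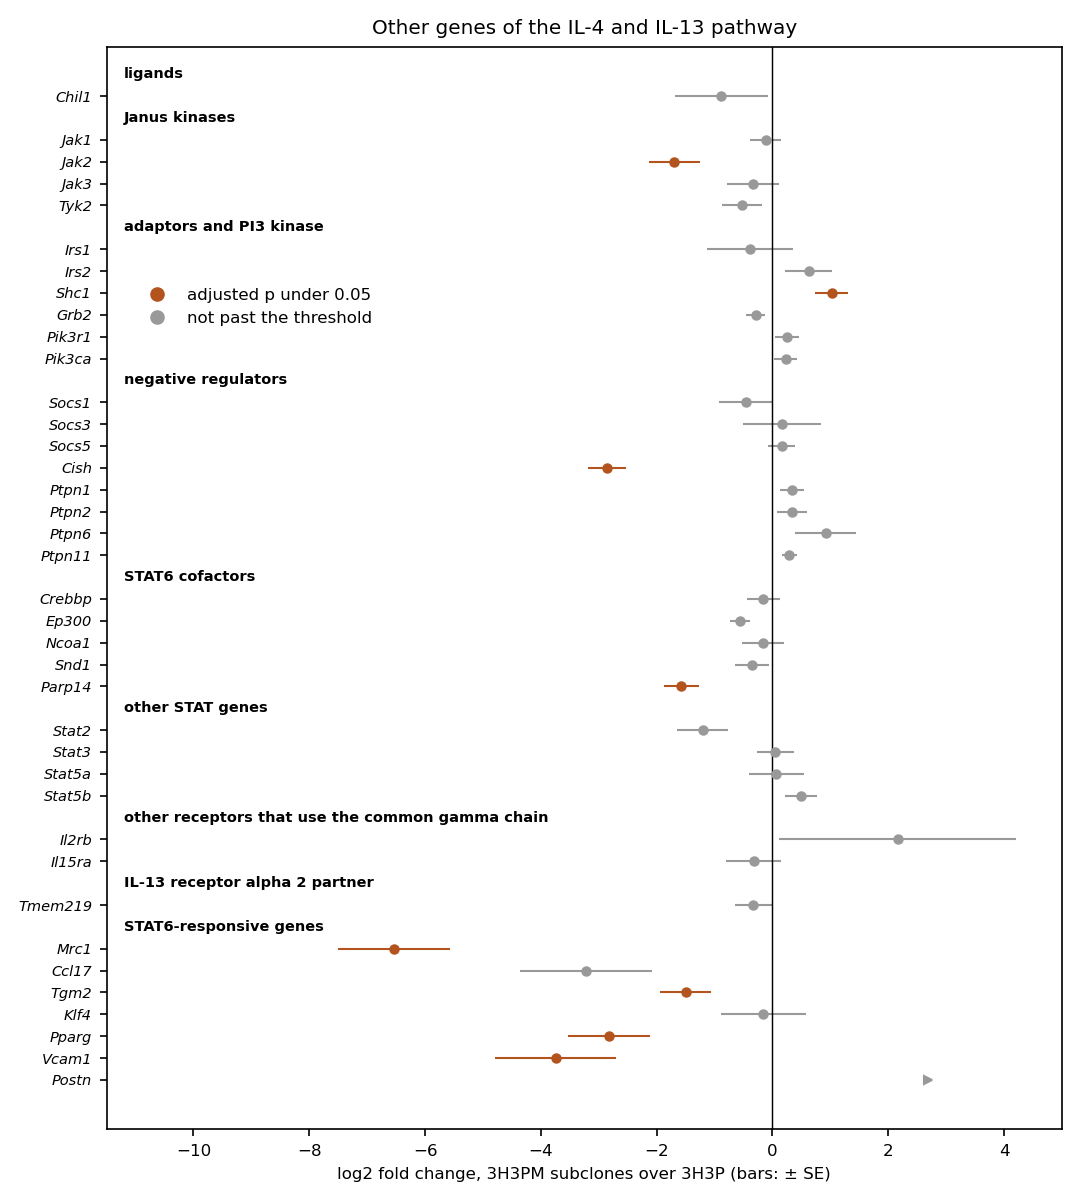
Fitted log2 fold change (subclones over 3H3P, ± SE) of tested genes of the pathway list, by role; orange marks an adjusted p under 0.05 and the triangle for Postn is a bound against 3 counts in 3H3P. Shc1 is the one orange gene on the higher side, at 1.02, and 4 of those on the lower side are STAT6-responsive genes, of which Mrc1 entered the test only through 3H3P.

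Of the 5 genes 3 lie on chromosome X, so their surroundings were examined. Among 423 tested genes of chromosome X, 4.49% were called higher and 16.3% lower, with a median log2 fold change of −0.03. On chromosome 7, which carries Il4ra, 3.79% of 1135 tested genes were higher and 15.3% lower (median −0.27), and on chromosome 10, which carries Stat6, 4.04% of 693 were higher and 13.7% lower (median −0.17).

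Around Il13ra2 none of the 4 nearest tested genes, 2 on either side, passed the edgeR test (adjusted p = 0.172 to 0.967), and the nearest of them lies 1880 kb away. Amot and Alg13 on one side had log2 fold changes of −0.02, which turned to 0.06 with library size alone, and 0.62, and Tmem29 and Apex2 on the other −0.35 and 0.39. Around Il4ra, Nsmce1, a gene of the SMC5/6 complex 60.5 kb away, was lower, with 25.7 ± 2.34 CPM in the subclones and 41.6 CPM in 3H3P (log2 fold change −0.69, edgeR adjusted p = 0.0325; up to 0.0693 without subclone 3 or 6 or without a filter, and from 0.00656 over the alternatives). Gtf3c1, at 61.5 kb on the other side, had a log2 fold change of −0.32, and Kdm8 and Xpo6 of −0.76 and 0.30.

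Next to Il13ra1, Pgrmc1, encoding a haem-binding membrane protein, fell to 145 ± 23.2 CPM in the subclones, against 342 CPM in 3H3P (log2 fold change −1.24, SE 0.21, edgeR adjusted p = 0.00486). Lonrf3, between them, was at 0.579 ± 1.04 CPM in the subclones and 14.6 CPM in 3H3P (edgeR adjusted p = 0.0363; 0.000998 to 0.0650 over the alternatives, over 0.05 with DESeq2 and without subclone 1, 2, 3, 6 or 7). Dock11 on the other side had a log2 fold change of 0.03, which was −0.0020 by limma-voom and −0.02 and −0.06 without subclones 6 and 8. Wdr44, 12300 kb away, had one of −0.72 (edgeR adjusted p = 0.0764; 0.0358 by DESeq2 and 0.0434 by limma-voom). Around Il2rg, Foxo4, Snx12 and Med12 had log2 fold changes of 0.12, −0.44 and 0.34, and the connexin gene Gjb1 had 0 counts in the subclones and 1.37 CPM in 3H3P, at least 48.8-fold lower; it entered the test only through 3H3P, where it is high, so no p is given. Around Stat6 none of the 4 passed in the edgeR test of all libraries with TMM and filterByExpr. Nab2 came nearest, with 40.3 ± 14.5 CPM in the subclones and 12.3 CPM in 3H3P (edgeR adjusted p = 0.0515, and 0.00456 to 0.0806 over the alternatives). It passed in 7 of 14 alternatives. These were library size alone, no filter, the stricter filter, DESeq2, log2(TPM + 0.1), and leaving out subclone 7 or 8. Lrp1 and Nemp1 had edgeR adjusted p of 0.706 and 0.0684, and Nemp1 passed with library size alone (0.0489) and by DESeq2 (0.0290). Nxph4 was at 1.20 ± 0.796 CPM in the subclones and had 0 counts in 3H3P. It entered the test only through the subclones, where it is high, so no p is given.

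**Figure D4:**
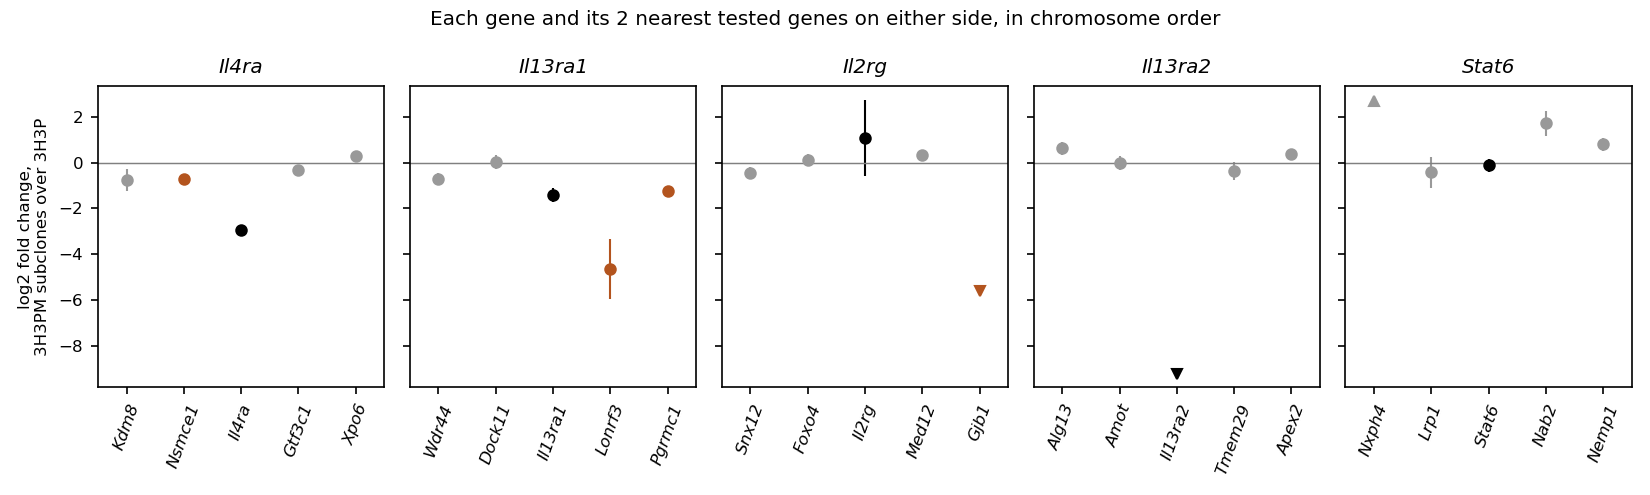
log2 fold change (subclones over 3H3P, ± SE where larger than the symbol) of each of the 5 genes (black) and the 2 nearest tested genes on either side (orange where called, grey otherwise), in chromosome order but not to distance. Triangles are bounds for genes at 0 counts in a group. Gjb1 entered the test only through 3H3P and Nxph4 only through the subclones. The 4 neighbours of Il13ra2, 1880 to 3090 kb away, run from −0.35 to 0.62.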

How the data were processed

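The submitters' processing notes name the tools FastQC, STAR, RSEM and DESeq2 and the build GRCm38 (mm10), without versions, options or order. The deposited expected count of a gene, an RSEM estimate, splits multiply matching reads between genes; it was rounded to whole numbers. Deposited TPM values, which scale by transcript length and sum, served for levels between genes and for an alternative; deposited FPKM values were left aside. Transcript lengths came from the deposited files, positions from GENCODE vM21 and promoters from RefSeq (GRCm38.p6; all 5 genes matched, and the others listed were not looked up).

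All 8 libraries entered edgeR 4.0.16 (R 4.3.3; filterByExpr, TMM, glmQLFit, glmQLFTest), with Benjamini-Hochberg adjustment over 14634 genes and a threshold of 0.05. With 1 library of 3H3P, spread is estimated among the subclones (residual degrees of freedom 6) and 3H3P is assumed to vary as they do; p-values measure spread between subclones. SE is the log2 fold change over the square root of F. CPM is TMM-scaled. Exact Poisson intervals (95%) and the floor of 3 counts cover counting error only; 3 counts are worth 0.165 to 0.229 CPM in a subclone and 0.187 CPM in 3H3P. Correlations used log2 CPM (prior count 2) and exact permutations (scipy 1.17.1) for genes with 100 or more counts over the subclones.

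The genes, lists and tests were chosen with earlier results of these data known. Named genes were the 5 genes, Il11, every called gene of the pathway list, up to 3 uncalled genes of each part of it with the highest mean CPM, the 2 nearest tested genes on each side, and the 3 most similar genes over the subclones (mean CPM at least 10). The last 2 sets skip Gm-numbered and Rik symbols. In the pathway list, 1 called gene counts in the totals but is not reported here. Markers, and list genes given for being at or near 0, were named after their values were seen. Alternatives were limma-voom 3.58.1 and DESeq2 1.42.0, other scalings and filters, log2(TPM + 0.1) with limma, and leaving out each subclone.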

Additional observations from a re-analysis of the deposited data

Results flagged for a closer look

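Among 67 genes named in the text, a single subclone stood far from the other 6 in 3 (gap over range of CPM above 0.568). Chance gives about 1 in 20, and 3 of 67 is near that share. Lonrf3, beside Il13ra1, was at 2.91 CPM in subclone 9, against 0 to 0.596 CPM in the others. Postn was at 4.28 CPM in subclone 7, against 0 to 1.72 CPM. Mrc1 was at 0.229 CPM in subclone 7, which is 3 counts, against 0 to 0.0741 CPM. None of the 5 receptor and Stat6 genes was among them.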

How the results depend on the processing

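The log2 fold changes of Il4ra, Il13ra1, Il2rg and Stat6 kept their sign under every alternative that gave a value. Il2rg, at 1.07, was at 0.12 by limma-voom and 0.56 on log2(TPM + 0.1), within its SD of 1.69 over the subclones, and gave no value with the stricter filter. The bound for Il13ra2 was −9.02 to −8.94 on the log2 scale when 1 subclone was left out, since fewer counts enter it, and was not computed by DESeq2, limma-voom or on log2(TPM + 0.1). Genes called higher numbered 1689 with DESeq2 and 669 (without subclone 3) to 1185 when 1 subclone was left out, against 1072; the cause was not tested. On log2(TPM + 0.1), pathway genes called numbered 3 higher and 3 lower, against 1 and 8; the cause was not tested. Leaving out 1 subclone gave 0 (without 3 or 9) to 1 higher and 5 (without 3 or 6) to 9 lower. Without the 2 farthest subclones, r turned to 0.0367 for Il4ra with Il13ra1, 0.286 for Il4ra with Il2rg and −0.282 for Il4ra with Stat6. Leaving out 1 subclone brought 5 results past an adjusted p of 0.05; r was 0.818 to 0.932 for Il13ra1 with Il2rg, 0.810 to 0.933 for Il13ra1 with Il11, 0.686 to 0.978 for Il2rg with Il11 and −0.933 to −0.309 for Il4ra with Il11. Directions turned for uncalled genes near 0: log2 fold changes over the subclones left out in turn were −0.112 to 0.288 for Socs3, −0.0187 to 0.144 for Stat3, −0.100 to 0.170 for Stat5a, −0.0629 to 0.0901 for Dock11 and −0.0691 to 0.0719 for Amot. By limma-voom Socs3, Stat5a and Dock11 were at −0.0060, −0.0033 and −0.0020; Amot was at 0.0575 with library size alone, 0.0111 without a filter and 0.00071 with the stricter filter. No paired analysis was possible because 3H3P has 1 library, so the groups share fewer than 2 replicate numbers, and its label carries none. Of the results for other named genes, 645 were unchanged in direction and call, 30 missed the threshold, 18 passed it and 13 turned. Depth limits Il2rg, with 2 to 77 counts per library, and Il13ra2, with 0 in each subclone.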
